A study of Mus musculus with 40 samples.

Results

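The genes of the proteasome and its activators were followed in CT26 tumors across 8 antibody treatments. A gene was taken when its symbol in the count table was Psm, a letter from a to g and a number, without the interferon-induced catalytic subunits Psmb8, Psmb9 and Psmb10. Of the 54087 genes counted, 46 met this rule. Of these 46, 43 passed the filter on low counts that left 14760 genes for testing. Psma8, the testis form of an alpha subunit, had 241 reads in all 40 tumors together. Psmb11, the thymus form of a catalytic subunit, had 4 reads, and Psme2b, a near copy of Psme2, had 19. No fold change was computed for these 3 genes.

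The proteasome degrades proteins marked with ubiquitin. Its 20S core is a barrel of alpha and beta rings, and Psmb5, Psmb6 and Psmb7 encode the beta subunits that cut peptide bonds in most cells. The 19S cap, built of Psmc ATPases and Psmd subunits, recognizes ubiquitinated proteins, unfolds them and feeds them into the core. PA28, a ring of Psme1 and Psme2 subunits, opens the core without ubiquitin or ATP. Interferon-γ (IFNγ) induces Psme1, Psme2 and the catalytic subunits Psmb8, Psmb9 and Psmb10, which replace the constitutive ones in the immunoproteasome and alter the peptides offered to CD8+ T cells. Psme3 forms a nuclear activator called PA28γ, Psme4 encodes PA200, and Psmf1 encodes PI31, which inhibits the core in vitro. The Psmg proteins help to assemble the core, and Psmd5, Psmd9 and Psmd10 help to assemble the base of the cap. In the text below, the 14 core and 17 cap genes are called the constitutive subunits, 31 in all.

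CT26 is a colon carcinoma line from a BALB/c mouse, and 1000000 cells were injected under the skin of BALB/c mice. Antibodies were given into the peritoneum on days 6, 9 and 12, and RNA was taken from whole tumor fragments on day 13. There were 5 mice in each of 8 groups. The isotype control group received a mIgG2a of irrelevant specificity. Of the 4 monotherapies, the first was anti-GARP:TGF-β1 WT, clone 58A2, which blocks the release of active TGF-β1 from GARP on regulatory T cells. The second, anti-GARP:TGF-β1 FcD, was the same clone with a mIgG2a Fc that does not bind Fcγ receptors. The third was anti-TGF-β, clone 1D11, and the fourth anti-PD-1 FcS, whose Fc part is silent. In the 3 combinations, 1 of the other antibodies was given together with anti-PD-1 FcS. The animals are wild-type mice with an injected line, so that tumor, immune and stromal cells contribute to each library. Of the carcinoma markers, Krt18 had a median of 10.5 CPM (counts per 1000000 counted reads) over the 40 tumors, Cdh1 1.93, Krt8 1.22 and Epcam 0.540. Krt18 ran from 3.03 to 112 CPM, Cdh1 from 0.554 to 22.1, Krt8 from 0 to 176 and Epcam from 0 to 40.1. The CPM values in this and the next paragraph are given without scaling of the libraries, and those in later paragraphs after it. In such bulk RNA, fewer cells of a type and less RNA per cell cannot be told apart.

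Between 11931730 and 20680548 reads were counted per tumor, and 42 of the 43 tested members had at least 100 reads in every tumor. Libraries numbered 41 to 60 held transcripts of the Y chromosome, such as Ddx3y at 6.78 to 34.1 CPM, and libraries 61 to 80 held none of Ddx3y but 59.2 to 762 CPM of Xist. Every group had 2 or 3 libraries of each kind. The 2 library parts compared below thus differ in these transcripts of the sex chromosomes and not only in library number. The libraries also differed in the balance of long and short genes. A length score was computed per tumor as the median log2 level, relative to the mean over all tumors, of the longest genes minus that of the shortest, taking the outer 2 of 4 equal bins of exon length, with the members left out. The scores of the 5 anti-TGF-β + anti-PD-1 tumors were 0.22, -0.37, -0.64, -0.24 and -0.48. Those of the isotype control tumors were 0.12, 0.18, -0.35, 0.12 and 0.12. In FcD + anti-PD-1 the scores were 0.27, -0.32, 0.26, 0.31 and 0.28, and in WT + anti-PD-1 0.09, -0.04, 0.28, 0.33 and 0.26. Thus replicate 1 of anti-TGF-β + anti-PD-1, replicate 3 of the control and replicate 2 of FcD + anti-PD-1 stood apart from their groups, and replicate 2 was the lowest in WT + anti-PD-1 too. Counts of members against the controls are given with and without these tumors, and so are the values of PA28 for anti-TGF-β + anti-PD-1.

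Psme1 (ENSMUSG00000022216) lies on the plus strand at chr14:55578123-55581529 and Psme2 (ENSMUSG00000079197) on the minus strand at chr14:55587441-55591113 of GRCm38. The genes are 5911 bases apart and converge, with 12990 bases between their outer ends. Psmb5 (ENSMUSG00000022193), a constitutive catalytic subunit, lies on the minus strand of the same chromosome at chr14:54614119-54618022. The promoters of these 3 genes are shown because the comparison of PA28 with the constitutive subunits uses these genes. Psme2 has a second RefSeq start site, whose window at chr14:55591002-55591171 is not shown and holds none of the motifs named below. The Psme1 window lies within the gene span given above. Each sequence is written 5′ to 3′ on the strand of the gene, from 150 bases before the RefSeq start site (GRCm38.p6) to 20 after it, at chr14:55578344-55578513 for Psme1, chr14:55591082-55591251 for Psme2 and chr14:54617976-54618145 for Psmb5.
Psme1: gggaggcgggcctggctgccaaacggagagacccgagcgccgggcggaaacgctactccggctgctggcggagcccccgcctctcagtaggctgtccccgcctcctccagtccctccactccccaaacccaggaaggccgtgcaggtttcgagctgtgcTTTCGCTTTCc
Psme2: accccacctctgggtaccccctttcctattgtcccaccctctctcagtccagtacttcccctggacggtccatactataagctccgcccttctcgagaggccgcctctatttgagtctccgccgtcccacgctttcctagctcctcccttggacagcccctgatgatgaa
Psmb5: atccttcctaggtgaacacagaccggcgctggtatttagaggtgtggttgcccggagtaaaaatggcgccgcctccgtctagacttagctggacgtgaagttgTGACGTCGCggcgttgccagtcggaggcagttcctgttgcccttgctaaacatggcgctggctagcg

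The capitals in the Psme1 promoter mark a match to the core of the interferon-stimulated response element (ISRE; GAAA, any 2 bases, GAAA), read on the opposite strand 10 bases after the start site. In Psmb5 they mark a match to TGACNNNGC, the core of the antioxidant response element, 47 bases before the start site. The Psme2 window holds neither of these, nor TTCNNNGAA, the core of the IFNγ-activated site. All 4 motifs searched were sought on both strands in windows from 250 bases before to 50 after 41 RefSeq start sites of 38 members and 32851 start sites of all genes. The ISRE core was found in 5 of the 41 windows (12.2%) and in 3.44% of all windows. TGACNNNGC was found in 6 member windows (14.6%) against 12.4% of all, TTCNNNGAA in 2 (4.88%) against 8.3%, and CCAAT in 13 (31.7%) against 37.4%. A match of these letters does not show that a factor binds there. The 5 genes with the ISRE core were Psme1, Psmb3, Psmd4, Psmd9 and Psmg4, and the members as a whole were spread over 16 chromosomes with 6 on chromosome 14.

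In isotype control tumors, PA28 was among the most abundant of the 43 members per length of transcript. The level of Psme2 was 149 CPM per kilobase of union exon length (median of 5 tumors, range 123 to 180) and that of Psme1 was 131 (109 to 158). Only the alpha subunit Psma6 stood higher, at 151 (135 to 167), and these 3 ranges overlapped. Counted over the exons of the basic annotation, which holds fewer partial transcripts, Psme2 had 269 and Psme1 259 CPM per kilobase and both kept their ranks, while Psma7 stood first with 310. Per kilobase of union exon, Psmb6 had a median of 70.3 CPM, Psmb7 44.4 and Psmb5 37.3, and of the interferon-induced subunits Psmb10 had 111, Psmb8 102 and Psmb9 63.8. Over the basic annotation Psmb6 had 165 CPM per kilobase, Psmb7 131 and Psmb5 37.3, against 144, 213 and 173, so that the order of Psmb6 and the induced subunits depended on the length used. The 2 other activators were lower, with 59.7 CPM per kilobase for Psme3 and 11.9 for Psme4, and Psmf1 had 10.4. The lowest members were Psmd9 with 4.90 and Psmg3, a core assembly chaperone, with 3.37. Of the stretches of 100 bases in Psme2 transcripts, 18.4% also occur in Psme2b, so that some of their reads could have been assigned to either gene or dropped, while Psme1 shared 0.329% with another gene.

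Psme1 encodes the alpha subunit of PA28. In isotype control tumors its level was 293, 288, 350.0, 248 and 240.2 CPM in replicates 1 to 5. With anti-TGF-β + anti-PD-1 it was 299.96, 407, 430.3, 340.4 and 456 CPM. Of these 5 tumors, 3 lay above every control, while replicate 1 and replicate 4 lay within the control range. Anti-TGF-β alone gave 268, 298, 266, 358 and 292 CPM, and anti-PD-1 FcS alone gave 179, 315, 229, 309 and 293. Both monotherapies overlapped the controls broadly, and the first anti-PD-1 tumor was far below them. Anti-GARP:TGF-β1 WT gave 289, 277, 356, 271 and 319 CPM alone and 337, 329.8, 303, 275 and 286 when combined. For anti-GARP:TGF-β1 FcD the levels were 356, 236, 299, 269.6 and 172 CPM alone and 301, 349.8, 302, 264 and 304 when combined. All these groups overlapped the controls, and the fifth tumor under FcD alone had the lowest level of Psme1 among all 40 tumors.

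Psme2 encodes the beta subunit of PA28. Its levels were 269.9, 263, 317, 232 and 216 CPM in isotype control tumors. In the anti-TGF-β + anti-PD-1 group, Psme2 reached 269, 430.2, 459, 341 and 491 CPM, and 4 of the 5 lay above every control. The exception was replicate 1, which lay within the control range for Psme1 as well. Anti-TGF-β alone gave 252, 267, 269, 358 and 266 CPM and anti-PD-1 FcS alone 159, 287, 230.05, 272 and 279. Anti-GARP:TGF-β1 WT gave 252, 249.96, 343, 256 and 294 CPM alone and 289, 295, 273, 231 and 237 when combined. For anti-GARP:TGF-β1 FcD the levels were 319, 224, 257, 238 and 142 CPM alone and 266, 358, 283, 243 and 287 when combined. The tumors lowest in Psme1 were thus also lowest in Psme2. The mean of the anti-TGF-β + anti-PD-1 group was 387 ± 64.8 CPM for Psme1 and 398 ± 91.4 for Psme2 (SD, n = 5), against 284 ± 43.8 and 259.5 ± 39.0 in the controls. In the other 6 groups the means ran from 265 to 306 CPM for Psme1 and from 236 to 288 for Psme2.

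**Figure D1:**
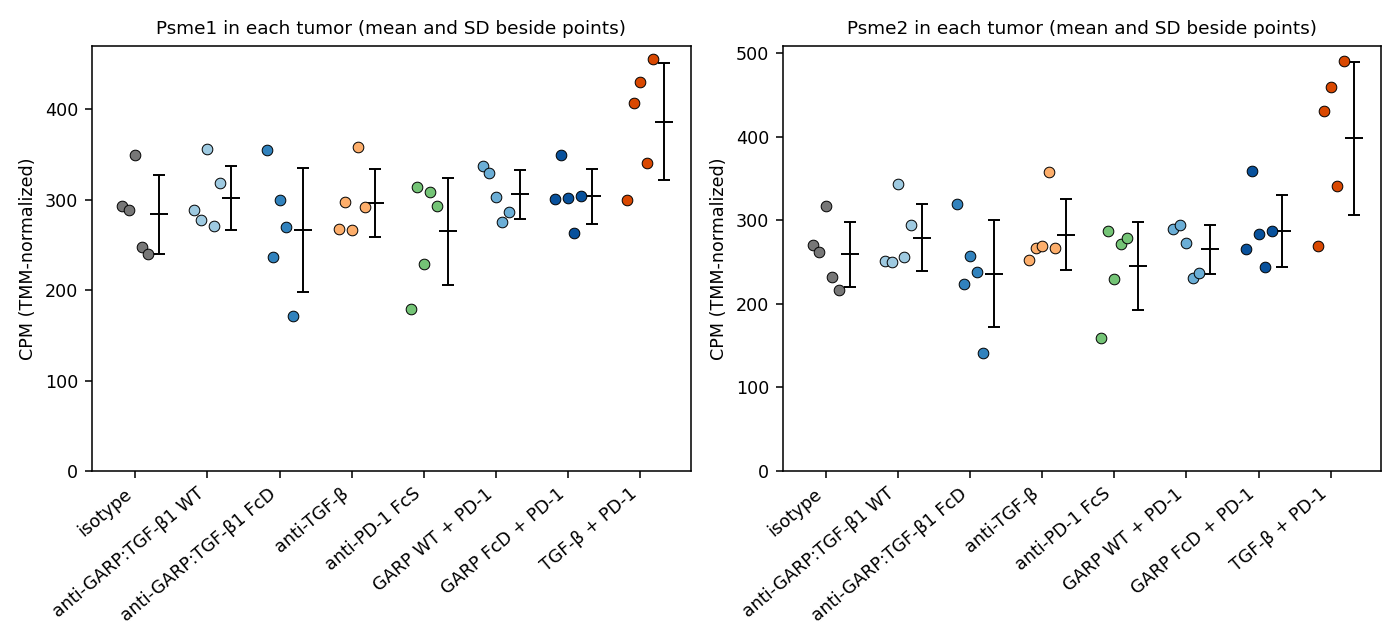
Levels of Psme1 and Psme2 in CPM in each of the 40 tumors, by treatment group (points), with the mean and SD of the 5 tumors of a group (bars). The anti-TGF-β + anti-PD-1 group reaches 456 CPM for Psme1 and 491 for Psme2, and 1 of its tumors stays within the range of the isotype controls for both genes.

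Psme2 and Psme1 had larger log2 fold changes than all 31 constitutive subunits when anti-TGF-β + anti-PD-1 was compared with the isotype control. Relative to the isotype control this order also held for FcD + anti-PD-1, while for WT + anti-PD-1 Psme1 exceeded 30 and Psme2 24 of the 31. The opposite end was also reached, with fold changes smaller than their standard errors. With anti-PD-1 FcS alone both genes exceeded 0 of the 31, and with FcD alone Psme1 exceeded 2 and Psme2 0. Relative to anti-PD-1 FcS, both genes lay above all 31 in all 3 combinations. With 1 tumor left out, Psme2 stayed above all 31 in each of 10 fits of anti-TGF-β + anti-PD-1 against the isotype control, and Psme1 in 6 of them, with 28 as its lowest count. Relative to anti-PD-1 FcS both stayed above all 31 in 9 of 10 fits with anti-TGF-β, 8 with WT and 10 with FcD added, and Psme2 exceeded 21 with WT when replicate 1 of anti-PD-1 FcS was left out. For FcD + anti-PD-1 and the isotype control the order held in 7 of 10 fits. Psme2 was 1.53-fold and Psme1 1.36-fold higher, and most core subunits were higher by smaller amounts. In edgeR's quasi-likelihood test over the 14760 genes, neither a member nor any other gene had an adjusted p under 0.05. The log2 fold change was 0.62 ± 0.17 (SE) for Psme2, with an unadjusted p of 0.000845 and an adjusted p of 0.109. For Psme1 it was 0.45 ± 0.15, with an unadjusted p of 0.00516 and an adjusted p of 0.143. At an unadjusted p under 0.05, 24 of the 43 members were higher and 1 was lower, where 8.49% of all genes were higher and 11.6% were lower. Positive fold changes were found for 39 of the 43, and the median of the members was 0.24 on the log2 scale against 0.02 over all genes. DESeq2's Wald test gave an adjusted p under 0.05 to 139 genes (1.3% of those with an adjusted p), which included Psma1, Psma4, Psma5, Psmb2, Psmd13 and Psme2.

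**Figure D2:**
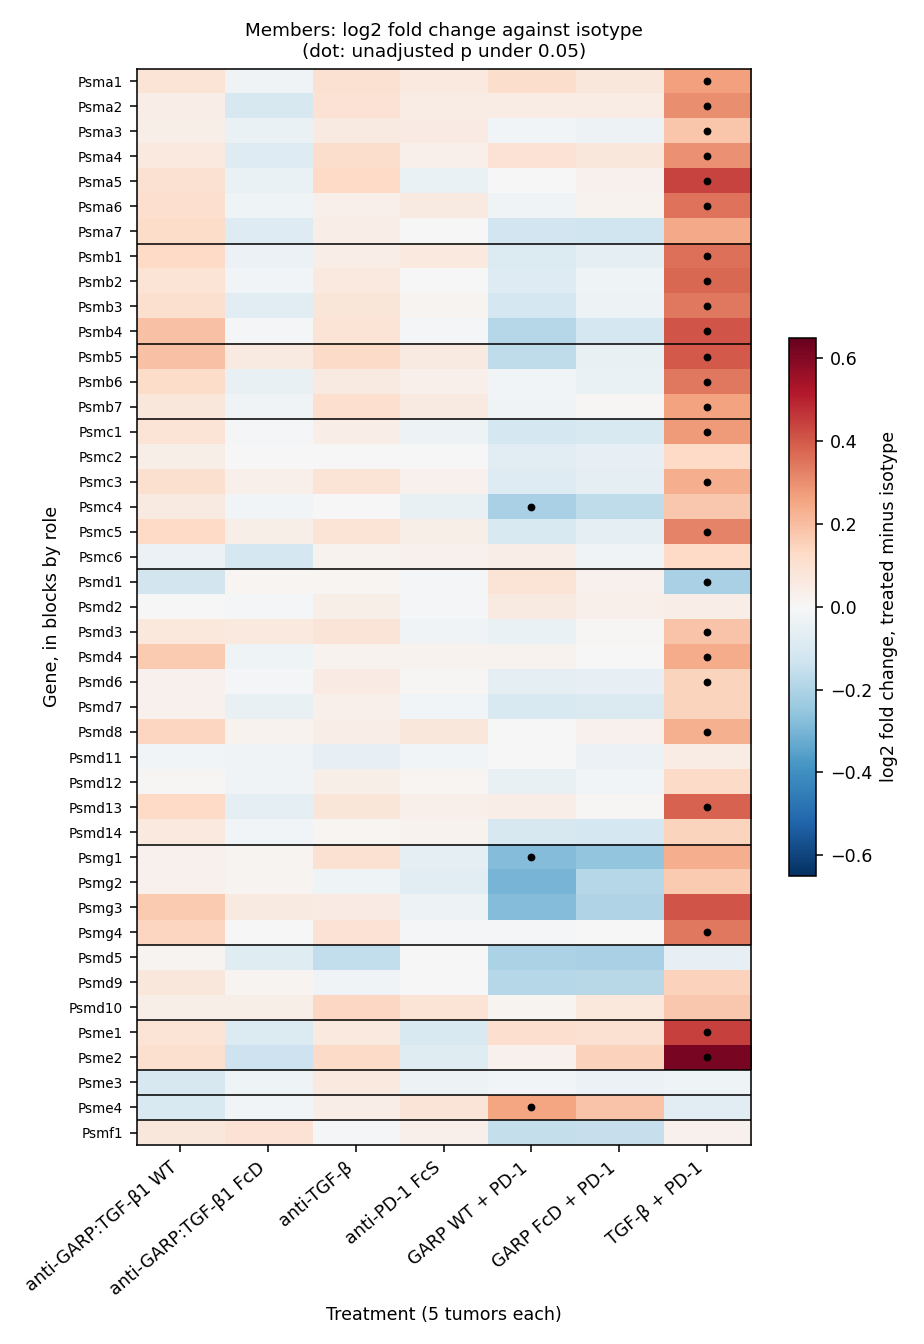
Log2 fold changes of the 43 tested members (rows, grouped by role) in each of the 7 treatment groups against the isotype control (columns), with a dot where edgeR gave an unadjusted p under 0.05. In the anti-TGF-β + anti-PD-1 column 24 members are higher and Psmd1 is lower, and the columns of the 4 monotherapies hold no dot.

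The 20S core held most of the higher members. Of its 14 subunits, 13 were higher at an unadjusted p under 0.05, and the log2 fold changes of all 14 ran from 0.18 to 0.44 with a median of 0.34. The alpha subunit Psma5 had the smallest p of the members, with levels of 146, 131, 167, 135 and 126 CPM in controls and 145, 199, 222, 182 and 207 with anti-TGF-β + anti-PD-1. Its replicate 1 lay within the control range and the other 4 above it, and its log2 fold change was 0.44 ± 0.11 (unadjusted p = 0.000307, adjusted p = 0.106). The levels of the alpha subunit Psma1 were 147, 157, 158, 149.8 and 141 CPM in controls and 176, 187, 194, 172 and 177 in the combination. For the alpha subunit Psma4 they were 174, 183, 187, 162 and 167 against 197.5, 226, 236, 194 and 217 CPM. These 2 genes and Psmd6 of the cap, with 87.3 to 99.1 against 99.2 to 109 CPM, did not overlap between the groups, as was the case for 1.73% of all genes in this direction. Without replicate 1 of the combination, 17 members lay wholly above the controls (6.06% of all genes), and without replicate 3 of the control 13 (4.72%). The beta subunit Psmb2, which has no catalytic site, was higher by 0.37 ± 0.10 (unadjusted p = 0.000681, adjusted p = 0.108).

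The 3 constitutive catalytic subunits were each higher at an unadjusted p under 0.05. Psmb5, which carries the chymotrypsin-like activity, had 37.1, 29.1, 44.7, 31.8 and 33.5 CPM in controls and 35.2, 43.2, 62.4, 43.0 and 49.0 with anti-TGF-β + anti-PD-1. Only 2 of the 5 treated tumors lay above every control, and the log2 fold change was 0.40 ± 0.14 (unadjusted p = 0.00769). Psmb6, which carries the caspase-like activity, had means of 141 ± 21.8 and 179 ± 29.8 CPM (SD, n = 5), and differed by 0.34 on the log2 scale. Psmb7, which carries the trypsin-like activity, had 156 ± 9.51 and 187 ± 25.2 CPM, and differed by 0.26. Their interferon-induced counterparts, which are no members, had larger differences in the same comparison. The log2 fold change was 0.74 ± 0.22 for Psmb10 (adjusted p = 0.127), 0.50 ± 0.24 for Psmb9 (0.243) and 0.49 ± 0.20 for Psmb8 (0.187), all at an unadjusted p under 0.05. In the other groups, means of Psmb5 ran from 31.4 to 40.3 CPM, of Psmb6 from 136 to 153 and of Psmb7 from 153 to 168.

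The 19S cap had a smaller median fold change than the core, a difference that was not tested. Of its 17 subunits, 8 were higher and 1 was lower at an unadjusted p under 0.05, with a median log2 fold change of 0.15. Of the 6 ATPases, 3 were higher, and the fold changes of all 6 lay between 0.13 and 0.32. Psmd13, a subunit of the lid, was higher by 0.38 ± 0.10 (unadjusted p = 0.000335, adjusted p = 0.106). Psmd1, the large scaffold subunit of the base, was lower by -0.21 ± 0.10 (unadjusted p = 0.04, adjusted p = 0.229). Psmd2, the other large scaffold subunit, had a fold change of 0.04. Of the core chaperones, Psmg4 was higher by 0.34 (unadjusted p = 0.0073) and the other 3 did not reach an unadjusted p of 0.05. None of the 3 cap chaperones did, and their fold changes ran from -0.05 for Psmd5 to 0.17 for Psmd10.

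The other activators and the inhibitor had fold changes near 0 in this comparison. Psme3 had means between 159 and 178 CPM in all 8 groups, and its log2 fold change with anti-TGF-β + anti-PD-1 was -0.03 ± 0.07. For Psme4 the fold change was -0.07 ± 0.12, with levels of 123 CPM in replicate 1 and 78.1 to 86.8 in the other 4 tumors of the combination. Psmf1 had 66.3 ± 5.24 CPM in controls and 67.6 ± 3.47 in the combination (SD, n = 5), and differed by 0.03 on the log2 scale.

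The size of the shift followed gene length among the members as it did among all genes. In the comparison of anti-TGF-β + anti-PD-1 with the isotype control, the median log2 fold change was 0.20 for all genes in the shortest of 4 equal bins of union exon length and 0.33 for the 20 members there. It was 0.06 for all genes and 0.23 for 14 members in the next bin, -0.03 and 0.13 (5 members) in the third, and -0.15 and -0.06 (4 members) in the longest. Within each bin the median of the members was above that of all genes. Spearman's rho of fold change and length was -0.43 across the 12761 tested genes with a length and -0.60 across the 43 members, as a description, since genes share their libraries. In 7 of the 8 groups, the tumor with the lowest length score had the highest mean level of the constitutive subunits. With the length score as a covariate, an alternative chosen after seeing the data, the members' median fell to 0.04, and 8 members were higher and 1 lower at an unadjusted p under 0.05 (9.08% of all genes were higher and 8.16% lower). Psme2 was then higher by 0.36 ± 0.15 (unadjusted p = 0.0276, adjusted p = 0.25) and Psme1 by 0.27 ± 0.15 (unadjusted p = 0.0736), against a median of 0.06 for the constitutive subunits. Leaving out replicate 1 of the combination as well gave 0.44 ± 0.18 for Psme2 and 0.32 ± 0.17 for Psme1, with 5 members higher (8.27% of all genes). Leaving out replicate 3 of the control gave 0.35 ± 0.18 and 0.31 ± 0.17, with 7 members higher (11.2%). In that fit over all tumors Psme4, one of the longest members, was higher by 0.18 ± 0.06 (unadjusted p = 0.00457), Psmd13 by 0.20 and Psma5 by 0.24, while Psmd5 was lower by -0.22. What the length score measures, in the tissue or in the RNA, was not tested.

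**Figure D3:**
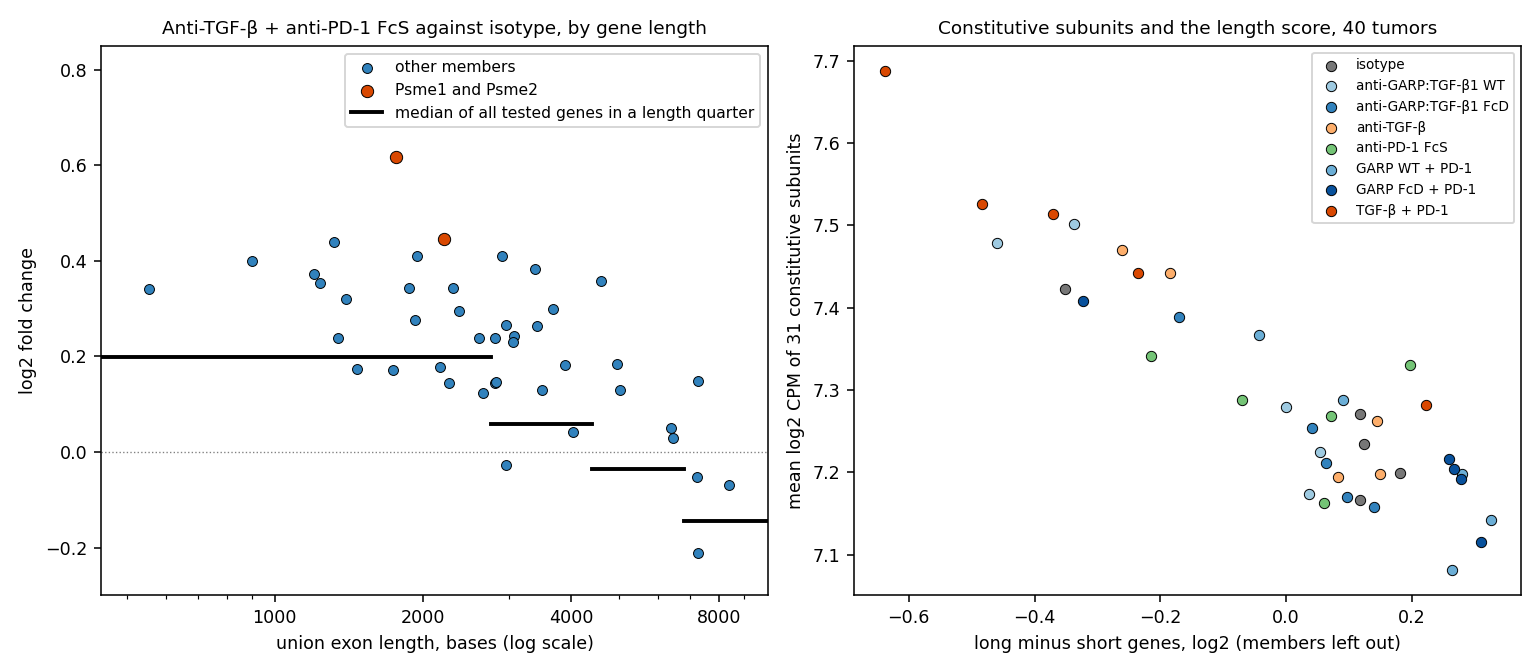
Left, log2 fold change of each member with anti-TGF-β + anti-PD-1 against the isotype control over its union exon length (log axis), with the median of all genes in each of 4 equal bins of length as lines. Right, mean log2 CPM of the 31 constitutive subunits over the length score in the 40 tumors. Medians of all genes descend from 0.20 in the shortest to -0.15 in the longest bin, and the members' medians descend beside them from 0.33 to -0.06.

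The calls depended on single tumors. Without replicate 1 of anti-TGF-β + anti-PD-1, the tumor with the high length score, edgeR gave an adjusted p under 0.05 to 2006 genes (13.4%) and to 23 members, of which 22 rose and Psmd1 fell. At an unadjusted p under 0.05, 33 members were then higher and 1 lower (13.1% and 16.6% of all genes). Psme2 then rose by 0.74 ± 0.17 (adjusted p = 0.0116) and Psme1 by 0.53 ± 0.15 (adjusted p = 0.0246). Without replicate 3 of the isotype control, 730 genes (4.88%) and 15 members passed, Psme1 (adjusted p = 0.0478) and Psme2 (adjusted p = 0.0379) among them, and 29 members were higher and 1 lower unadjusted (11.1% and 16% of all genes). Without replicate 3 of the combination, the tumor with the lowest length score, no gene passed and the members higher at an unadjusted p under 0.05 were 15, where 4.92% of all genes were higher. Leukocyte marker genes summed to 943 CPM in replicate 1 of the combination and to 567 to 655 in the other 4, against 525 to 654 in the controls. Replicate 1 was also the highest of its group in adipocyte markers (114 CPM, against 3.05 to 58.4 in the other 4), fibroblast markers (2931 CPM) and endothelial markers (139 CPM). At an unadjusted p under 0.05, 6 of the 14 leukocyte markers were higher in the combination than in the controls. The part of these cells in the result was not tested.

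Adding anti-TGF-β to anti-PD-1 FcS gave the same counts of members as the comparison with the isotype control. Against anti-PD-1 FcS alone, 24 members were higher and 1 lower at an unadjusted p under 0.05, where 7% of all genes were higher and 10.1% lower, and the member median was 0.21 against 0.00 over all genes. Psme2 was higher by 0.70 ± 0.17 (unadjusted p = 0.000218, adjusted p = 0.129) and Psme1 by 0.55 ± 0.15 (adjusted p = 0.138), more than any of the 31 constitutive subunits. Psma5 was higher by 0.48 ± 0.11 and Psmb2 by 0.37 ± 0.10, and Psmd1 was lower by -0.20 ± 0.10. Fold changes of the catalytic subunits were 0.34 for Psmb5, 0.31 for Psmb6 and 0.21 for Psmb7, all at an unadjusted p under 0.05. Those of Psme4 (-0.15), Psmd5 (-0.05), Psme3 (0.01) and Psmf1 (-0.00) were not. Psmd13 and Psmg4 did not overlap between the groups, where 0.732% of all genes were higher and 1.14% lower in this way, and 22 members lay wholly above without replicate 1 of the combination (6.51% of all genes). With edgeR, 1 gene of all (0.00678%) and no member had an adjusted p under 0.05. Without replicate 1 of the combination, 1734 genes (11.6%) and 20 members passed, Psme2 with 0.82 (adjusted p = 0.0132) and Psme1 with 0.63 (adjusted p = 0.0160). At an unadjusted p under 0.05, 32 members were then higher and 2 lower (11.8% and 16.3% of all genes). Without replicate 3 of the combination, 14 members were higher at an unadjusted p under 0.05 (3.97% of all genes). With the length score as a covariate 6 were higher and 1 lower (6.85% and 7.24% of all genes), and the member median was 0.05. In that edgeR fit Psme2 had 0.43 ± 0.16 (adjusted p = 0.257) and Psme1 0.36 ± 0.15 (adjusted p = 0.289). Leaving out replicate 1 of the combination as well gave 0.52 ± 0.18 and 0.41 ± 0.17. All 5 skeletal muscle markers were lower than with anti-PD-1 FcS, whose replicate 2 had a sum of 152 CPM, and 1 of 14 leukocyte markers was higher, and their part was not tested. DESeq2's test called 78 genes (0.881% of those with an adjusted p), among them Psma5, Psmb2, Psmd13, Psme1 and Psme2. This comparison and the one with the isotype control share the treated tumors, so they are not separate evidence.

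PA28 was then set against the constitutive subunits within each tumor, as the mean log2 CPM of Psme1 and Psme2 minus the mean of the 31 subunits. The difference was 0.81 ± 0.14 in isotype controls, 0.84 ± 0.07 with anti-GARP:TGF-β1 WT, 0.69 ± 0.36 with FcD, 0.85 ± 0.15 with anti-TGF-β and 0.69 ± 0.39 with anti-PD-1 FcS (SD, n = 5). With anti-PD-1 added, it was 0.93 ± 0.06 for WT, 0.97 ± 0.07 for FcD and 1.10 ± 0.19 for anti-TGF-β. Relative to the isotype control, anti-TGF-β + anti-PD-1 was higher by 0.29 ± 0.11 (SE), and 4 of its 5 tumors lay above every control. It was 0.34 without replicate 1 of the combination and 0.32 without replicate 3 of the control. Within the library parts this difference was 0.15 in libraries 41 to 60 and 0.38 in libraries 61 to 80. For FcD + anti-PD-1 it was 0.16 ± 0.07 with 3 of 5 tumors above every control, and for WT + anti-PD-1 0.12 ± 0.07 with 2 of 5. The mean of the constitutive subunits alone differed by 0.23 ± 0.08 in anti-TGF-β + anti-PD-1 tumors, by -0.04 ± 0.07 in WT + anti-PD-1 and by -0.03 ± 0.07 in FcD + anti-PD-1 tumors.

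When the libraries were scaled to the constitutive subunits in the edgeR fit, Psme2 was higher by 0.37 ± 0.14 with anti-TGF-β + anti-PD-1 than in the isotype control (unadjusted p = 0.00916, adjusted p = 0.0507). Psme1 was higher by 0.21 ± 0.13 (unadjusted p = 0.108). Against anti-PD-1 FcS alone, the values were 0.46 ± 0.14 for Psme2 (adjusted p = 0.057) and 0.31 ± 0.13 for Psme1 (adjusted p = 0.0991). This scaling moved the median of all genes to -0.21 in the comparison with the isotype control, and the split of all genes at an unadjusted p under 0.05 from 8.49% higher and 11.6% lower to 1.02% higher and 35.7% lower. Relative to the constitutive subunits, Psme3 had a fold change of -0.26 ± 0.10 (adjusted p = 0.0571), Psmf1 -0.20 ± 0.07 (adjusted p = 0.051) and Psme4 -0.28 ± 0.17 (adjusted p = 0.245). The values of these 3 genes thus lay near the median of all genes in this scaling. In the same scaling without replicate 1 of the combination, Psme2 rose by 0.45 ± 0.14 (adjusted p = 0.0135) and Psme1 had 0.24 ± 0.14 (adjusted p = 0.173). Without replicate 3 of the control Psme2 rose by 0.41 ± 0.15 (adjusted p = 0.0329) and Psme1 had 0.25 ± 0.14 (adjusted p = 0.171). Against anti-PD-1 FcS, Psme2 rose by 0.53 ± 0.14 without replicate 1 (adjusted p = 0.0074) and Psme1 had 0.34 ± 0.14 (adjusted p = 0.0511). Of all genes, 38.9% to 41.5% were lower at an unadjusted p under 0.05 in these 3 fits.

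**Figure D4:**
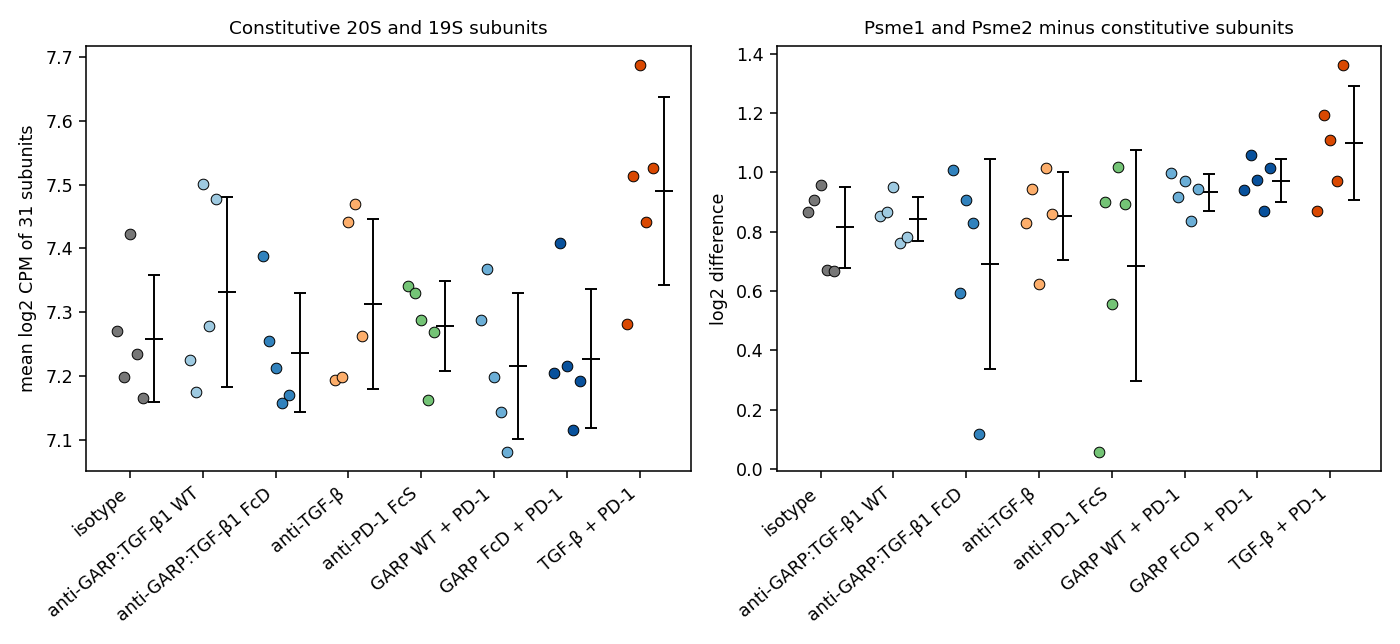
Left, mean log2 CPM of the 31 constitutive subunits in each tumor, by group. Right, mean log2 CPM of Psme1 and Psme2 minus that of the constitutive subunits. Points are tumors, and bars the mean and SD of 5. On the right, the anti-TGF-β + anti-PD-1 group has the highest mean, 1.10, and a tumor with anti-PD-1 FcS and another with FcD lie near 0, at 0.06 and 0.12.

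Those 2 tumors were the lowest in PA28 of their groups. Replicate 1 of anti-PD-1 FcS had a constitutive mean of 7.34 on the log2 CPM scale, the highest of its group, and replicate 5 of FcD had 7.17, near the lower end of the range of 7.16 to 7.39 in its group. Psmb8, Psmb9 and Psmb10 were low with PA28 there, at -0.78 and -0.46 relative to the constitutive subunits, where the 5 isotype controls had 0.41 to 0.80. Leukocyte markers summed to 345 CPM in the first of these tumors, the lowest of its group, and to 446 in the second, in a group of 356 to 648. The first also had 4260 CPM of fibroblast markers, against 1943 to 2316 in the rest of its group, and 269.9 CPM of adipocyte markers, against 2.21 to 13.6. The second had 2535 CPM of fibroblast markers, within the range of its group, and 5.25 of adipocyte markers, the lowest of its group. Endothelial markers were the highest of their groups in both tumors, at 139 and 132 CPM. The part of these cells in the low PA28 level was not tested. Relative to anti-PD-1 FcS alone, the difference of PA28 and constitutive subunits was 0.25 ± 0.18 higher with WT added, 0.29 ± 0.18 with FcD and 0.42 ± 0.19 with anti-TGF-β. Leaving out that 1 anti-PD-1 tumor gave 0.09, 0.13 and 0.26. In libraries 61 to 80 alone, which do not hold it, the differences were -0.04, -0.01 and 0.19.

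In both combinations with anti-GARP:TGF-β1, the mean of the constitutive subunits differed from the isotype control by less than its standard error. PA28 minus the constitutive subunits was higher by 0.12 ± 0.07 with WT and by 0.16 ± 0.07 with FcD (SE). In the comparison of WT + anti-PD-1 with the isotype control, 1 member was higher and 2 were lower at an unadjusted p under 0.05, where 13.2% of all genes were higher and 7.47% lower. The member was Psme4, the PA200 activator, with 112 ± 5.96 CPM against 94.2 ± 10.5 (SD, n = 5), a log2 fold change of 0.26 ± 0.12 (unadjusted p = 0.0344, adjusted p = 0.213). All 5 treated tumors lay above the 5 controls, as for 1.35% of all genes, while 1.62% lay wholly below. Psme4 belongs to the longest of the 4 bins of exon length. In this comparison the median of all genes was 0.10 in the longest and -0.05 in the shortest bin, and that of the 4 members in the longest bin was -0.05. The ATPase Psmc4 was lower by -0.21 ± 0.10 (unadjusted p = 0.0374) and the core chaperone Psmg1 by -0.28 ± 0.14 (unadjusted p = 0.0451). The cap chaperone Psmd5 had -0.21 ± 0.10 (unadjusted p = 0.0545), and the largest positive values after Psme4 by p were 0.11 for Psma1 and 0.09 for Psma4. The fold change of Psme1 was 0.11 and that of Psme2 0.03. Psmf1 had -0.15, Psmb5 -0.17, and Psmb6, Psmb7 and Psme3 -0.02 each. With the libraries scaled to the constitutive subunits, Psme4 had an unadjusted p of 0.0986. Without replicate 3 of the isotype control no member had an unadjusted p under 0.05 (10.8% and 5.78% of all genes). Without replicate 2 of the combination 1 was higher and 5 were lower, where 17.4% of all genes were higher and 10.8% lower. The shares of all genes rested largely on replicate 5 of the combination. Leaving it out gave 1 higher and 0 lower members, where 2.81% of all genes were higher and 3.04% lower.

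FcD + anti-PD-1 gave similar values, with no member at an unadjusted p under 0.05 where 10.7% of all genes were higher and 5.85% lower. No member was free of overlap with the controls, where 1.96% of all genes were so on the higher and 1.29% on the lower side. Without replicate 2 of this combination, 1 member was higher and 5 were lower at an unadjusted p under 0.05, where 14.9% of all genes were higher and 15% lower. There was none without replicate 3 of the control (8.8% and 5.47% of all genes). Psme4 had 107 ± 16.4 CPM and a fold change of 0.19 ± 0.12 (unadjusted p = 0.115), with 4 of 5 tumors above every control. For Psmd5 the fold change was -0.21 ± 0.10 (unadjusted p = 0.053), for Psmg1 -0.26 ± 0.14 (0.0689) and for Psmf1 -0.15 ± 0.08 (0.0802). Psme1 had 0.10, Psme2 0.15, Psma1 and Psma4 0.07 each, Psmb5 -0.05, Psmb6 -0.04, Psmb7 0.01 and Psme3 -0.04. Against anti-PD-1 FcS alone, the only member at an unadjusted p under 0.05 was Psmf1, which had 67.8 ± 2.78 CPM with anti-PD-1 alone, 59.6 ± 6.89 with WT added and 59.7 ± 7.20 with FcD added (SD, n = 5). Its log2 fold changes were -0.19 ± 0.08 (unadjusted p = 0.033, adjusted p = 0.264) and -0.18 ± 0.08 (unadjusted p = 0.0355, adjusted p = 0.458). In each case 4 of the 5 tumors lay below every anti-PD-1 tumor, where 5.99% and 4.27% of all genes were lower and 11.2% and 6.46% higher at an unadjusted p under 0.05. No member was free of overlap, against 0.251% of all genes on the higher and 0.413% on the lower side with WT, and 0.474% and 0.522% with FcD. Leaving out replicate 2 of the combination gave 8 lower members with WT (10.3% of all genes) and 5 with FcD (13.8%) at an unadjusted p under 0.05. Leaving out replicate 1 of anti-PD-1 FcS gave 0 lower members with WT (2.95% of all genes) and 0 with FcD (2.53%). Leaving out replicate 5 of WT + anti-PD-1 gave 0 with WT (3.27%). Psmd5 had -0.20 and Psmd9 -0.18 in both comparisons, with unadjusted p-values from 0.058 to 0.102. Fold changes were 0.21 for Psme1, 0.11 for Psme2, 0.17 for Psme4, 0.06 for Psmd2 and -0.22 for Psmb5 with WT, and 0.20 for Psme1, 0.23 for Psme2, 0.10 for Psme4 and -0.11 for Psmb5 with FcD, none at an unadjusted p under 0.05. Without replicate 1 of anti-PD-1 FcS, Psme1 had 0.09 and Psme2 -0.02 with WT, and 0.08 and 0.10 with FcD. Without replicate 2 of the combination, these values were 0.18 and 0.07 with WT and 0.13 for both genes with FcD. Leukocyte markers summed to 494 to 2928 CPM with WT + anti-PD-1 and to 508 to 1195 with FcD + anti-PD-1, against 525 to 654 in controls. At an unadjusted p under 0.05, 5 of 14 leukocyte markers were higher with WT + anti-PD-1 and 3 with FcD + anti-PD-1 than in the isotype control. All 5 adipocyte markers and all 4 epithelial and carcinoma markers were higher with FcD + anti-PD-1, with sums of 29.3 to 621 and 6.81 to 342 CPM against 3.67 to 61.3 and 6.43 to 21.1 in controls. The epithelial and carcinoma sums were 11.7, 10.6, 6.81, 342 and 40.4 CPM in replicates 1 to 5. Only replicates 4 and 5 thus lay above the controls, and the median of 11.7 was below the control median of 17.5. With WT + anti-PD-1, 3 of 4 endothelial markers were higher, with sums of 62.3 to 431 CPM against 75.9 to 99.4. Also higher were 1 of 4 epithelial and carcinoma markers with WT + anti-PD-1, and 1 of 4 endothelial and 1 of 6 fibroblast markers with FcD + anti-PD-1. Against anti-PD-1 FcS alone, all 5 skeletal muscle markers were lower in both combinations. In the same comparison, 7 of 14 leukocyte markers, 1 of 4 endothelial and 1 of 4 epithelial and carcinoma markers were higher with WT added, and 2 of 4 epithelial and carcinoma markers with FcD added. The part of these cells in the members' differences was not tested.

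Under the 4 monotherapies edgeR gave no member an unadjusted p under 0.05 and no gene an adjusted p under 0.05. Of all genes, 0.583% were higher and 0.386% lower with anti-GARP:TGF-β1 WT, 0.264% and 0.21% with FcD, 1.77% and 0.549% with anti-TGF-β, and 0.603% and 0.352% with anti-PD-1 FcS. No member was free of overlap with the controls. On the higher and lower side, 0.156% and 0.0339% of all genes were so with WT, 0.122% and 0.0745% with FcD, 0.102% and 0.0813% with anti-TGF-β, and 0.108% and 0.163% with anti-PD-1 FcS. The median log2 fold change of the members was 0.07 with WT, -0.02 with FcD, 0.05 with anti-TGF-β and 0.01 with anti-PD-1 FcS. Spearman's rho of fold change and gene length over all genes was -0.42 with WT, 0.003 with FcD, -0.14 with anti-TGF-β and -0.09 with anti-PD-1 FcS. In the shortest bin of length with WT, the median was 0.098 for all genes and 0.095 for the 20 members. With WT the members of smallest p were Psmd8 (0.14), Psmd4 (0.17) and Psmb5 (0.19) among positive and Psme3 (-0.11), Psmd1 (-0.12) and Psme4 (-0.10) among negative fold changes, with unadjusted p-values from 0.122 to 0.403. With FcD they were Psmf1 (0.10), Psmd3 (0.06) and Psmb5 (0.06), and Psmc6 (-0.11), Psma2 (-0.10) and Psma4 (-0.08), with p-values from 0.23 to 0.695. With anti-TGF-β they were Psma4 (0.12), Psma1 (0.10) and Psmd10 (0.14), and Psmd5 (-0.16), Psmd11 (-0.05) and Psmd9 (-0.02), with p-values from 0.134 to 0.829. With anti-PD-1 FcS they were Psmd10 (0.09), Psma1 (0.06) and Psmd8 (0.07), and Psme1 (-0.10), Psme3 (-0.03) and Psmc4 (-0.05), with p-values from 0.355 to 0.629. PA28 differed by 0.09 (Psme1) and 0.10 (Psme2) with WT, -0.09 and -0.14 with FcD, 0.06 and 0.12 with anti-TGF-β, and -0.10 and -0.08 with anti-PD-1 FcS, each less than its standard error. Without replicate 3 of the isotype control, 2 members were higher and 1 lower with WT, where 1.99% of all genes were higher and 3.1% lower at an unadjusted p under 0.05, and 1 was higher with anti-TGF-β (1.7% of all genes).

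Whether the effect of an antibody differed with and without anti-PD-1 was tested as an interaction in the same model. For anti-TGF-β, 4 members had a positive interaction at an unadjusted p under 0.05, where 2.3% of all genes had one in either direction. The values were 0.57 ± 0.24 for Psme2 (unadjusted p = 0.0214), 0.48 ± 0.21 for Psme1 (0.0278), 0.35 ± 0.16 for Psma5 (0.0289) and 0.31 ± 0.14 for Psmb2 (0.0375), each with an adjusted p of 0.959. Without replicate 1 of anti-TGF-β + anti-PD-1, 10 members had a positive and 2 a negative interaction (3.73% and 8.07% of all genes), with 0.70 for Psme2 and 0.57 for Psme1. Without replicate 3 of the control 1 member had a positive and 0 a negative one (0.308% and 0.957%), which was Psme2 with 0.50 (unadjusted p = 0.0494), and Psme1 had 0.41 (unadjusted p = 0.0678). For WT the interaction was negative for Psmf1 (-0.26, unadjusted p = 0.037) and Psmb5 (-0.41, unadjusted p = 0.0458), with adjusted p-values of 0.483 and 8.75% of all genes at such a p. For FcD it was negative for Psmf1 (-0.28, unadjusted p = 0.0243, adjusted p = 0.787), where 4.49% of all genes had such a p.

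Over the 40 tumors, Psme1 had higher correlations with Psme2 and with the interferon-induced subunit Psmb8 than with the constitutive subunit Psmb5, and the difference between correlations was not tested. Adjustment was over the 9 pairs tested, of which 7 are described, with 100000 permutations of log2 CPM, for which 1e-05 is the smallest p and 1.8e-05 the smallest adjusted p reached. For Psme1 and Psme2, Pearson's r was 0.970 and Spearman's rho 0.953 (permutation test, adjusted p = 1.8e-05 each), and r was 0.954 without the 2 tumors farthest from the median. Within groups, as deviations from the group means, r was 0.971, and in the 2 library parts it was 0.959 and 0.983. Psme1 and Psmb8 had r = 0.941 and rho = 0.913 (permutation adjusted p = 1.8e-05 each), 0.920 without 2 tumors, 0.929 within groups, and 0.956 and 0.941 in the library parts. Psme2 and Psmb8 had r = 0.879 and rho = 0.827 (permutation adjusted p = 1.8e-05 each), 0.824 without 2 tumors. The close relation of these genes held in each library part. The genes of a pair are measured in the same library, so that its composition enters both.

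Psme1 and Psmb5 had r = 0.435 (permutation test, adjusted p = 0.00611) and rho = 0.471 (adjusted p = 0.00338), with r = 0.630 without the 2 tumors low in PA28 and 0.374 within groups. Within the library parts r was 0.145 in libraries 41 to 60 and 0.603 in libraries 61 to 80, and the difference between these values was not tested. For the constitutive subunits Psma1 and Psmb5, r was 0.511 (permutation adjusted p = 0.00121) and rho 0.495 (adjusted p = 0.00195), with 0.384 without 2 tumors and 0.364 and 0.594 in the parts. Psmb5 and Psmb8, which fill the same place in the core, had r = 0.167 (permutation adjusted p = 0.339) and rho = 0.307 (adjusted p = 0.0622). Psme1 and Psme3 had r = -0.09 (permutation adjusted p = 0.574) and rho = -0.10 (adjusted p = 0.536), so that no relation of Psme1 and Psme3 was detected.

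**Figure D5:**
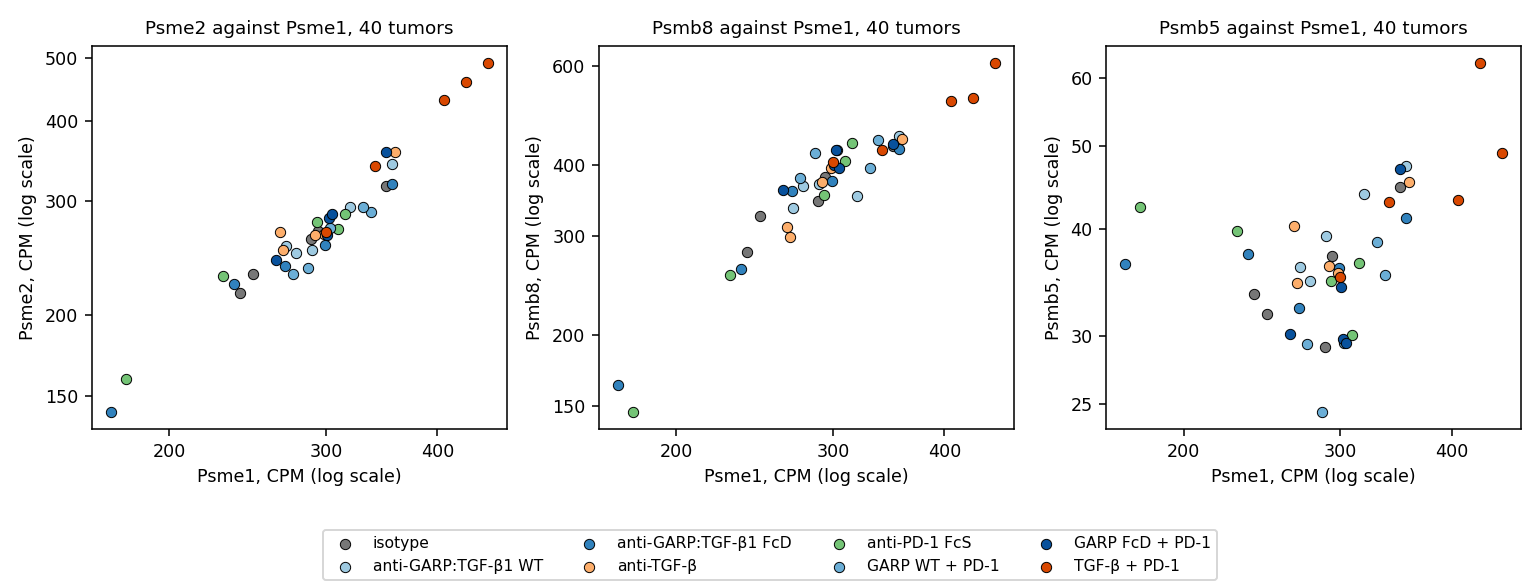
Psme2, Psmb8 and Psmb5 in CPM against Psme1 in CPM in the 40 tumors, coloured by group, on log axes. Psme2 and Psmb8 lie close to a line over the whole range of Psme1 (r = 0.970 and 0.941), and Psmb5 is scattered (r = 0.435).

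Genes around the proteasome were counted in the same way. Of 26 listed partners, such as the core maturation protein Pomp, deubiquitinases, ubiquitin shuttles and ubiquitin genes, 23 were tested. With anti-TGF-β + anti-PD-1 against the isotype control, 6 were higher and 3 lower at an unadjusted p under 0.05, with a median log2 fold change of 0.02, where 8.49% of all genes were higher and 11.6% lower. Pomp was higher by 0.46 ± 0.13 (adjusted p = 0.108), Uchl5, a deubiquitinase of the cap, by 0.35 ± 0.10 (adjusted p = 0.126) and Sem1, a small cap subunit outside the naming rule, by 0.37 ± 0.13 (adjusted p = 0.149). Nfe2l1, a transcription factor of proteasome genes, was lower by -0.21 ± 0.08 (adjusted p = 0.179). Of 12 genes of the interferon axis and peptide loading, 6 were higher in this comparison with a median of 0.45. With WT + anti-PD-1 4 were higher (median 0.32), where 13.2% of all genes were, and with FcD + anti-PD-1 3 were (median 0.30), where 10.7% were. The differences between these groups were not tested for the list. Ifng, which encodes IFNγ, was higher by 1.46 ± 0.47 (adjusted p = 0.141) for the combination of anti-TGF-β, by 1.36 ± 0.47 (adjusted p = 0.159) for WT + anti-PD-1 and by 1.48 ± 0.48 (adjusted p = 0.225) for FcD + anti-PD-1. In each of these groups all 5 tumors lay above every control, as for 1.73%, 1.35% and 1.96% of all genes.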

How the data were processed

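RNA of tumor fragments from 40 mice was sequenced in 100-base pairs from stranded mRNA libraries. The authors aligned reads to GRCm38 with STAR 2.5.3a (SAMtools 1.6), counted them per gene with HTSeq 0.9.1 and deposited raw counts. The annotation release, strand setting and treatment of shared reads are not given in the sources used here. All count columns were used and 0 left out. Total counts ran from 11931730 to 20680548 (median 14030511).

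Members and gene lists were chosen with earlier results of these data known. Counts were normalized with TMM, filtered with filterByExpr and tested 2-sided with edgeR 4.0.16 (robust quasi-likelihood, R 4.3.3, limma 3.58.1) in 1 model of all 40 mice, with Benjamini-Hochberg adjustment over 14760 genes, for 10 comparisons and 3 interactions. Standard errors were obtained from the fold change and the F statistic. Levels are CPM, and log2 CPM uses a prior count of 2. Results for 1 gene outside the members, 2 correlations among them, are not reported here. Correlations used 100000 permutations (Python 3.11.15, numpy 2.4.6, pandas 2.3.3, scipy 1.17.1). The scripts were tested on simulated data. Exon lengths came from the GENCODE annotation of GRCm38 used here, which may not be the release used for counting (86.5% of tested genes and 43 of 43 members matched). Named genes are Psme1 to Psme4, Psmf1, Psmb5 to Psmb7, the 3 members with the smallest p in each direction, and up to 4 genes of each other list. Nothing says whether mice of a group shared a cage or batch, so p-values measure the spread between these samples.

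Alternatives were DESeq2 size factors and its Wald test (1.42.0), no filter on low counts, a prior count of 0.5, the library part as a covariate, only the compared groups, libraries scaled to the constitutive subunits, and each mouse left out. A shorter annotation for lengths, the length score as a covariate, and the scaled fit, the length score fit, the interaction and the overlap counts with 1 tumor that stood apart left out, and the order of PA28 and constitutive subunits with each mouse left out, were chosen after seeing the data.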

Additional observations from a re-analysis of the deposited data

Results flagged for a closer look

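Of 104 sets of 5 tumors examined (13 values in 8 groups), 5 held a tumor whose distance to the nearest other was more than 0.71 of the range of its group (Dixon's criterion). Chance alone flags about 1 group in 20. Psme2 had 8.48 log2 CPM in replicate 4 of anti-TGF-β, where the other 4 tumors had 7.98 to 8.07. Psme4 had 6.94 in replicate 1 of anti-TGF-β + anti-PD-1, above 6.29 to 6.44 in the others, and this tumor also had the highest length score and leukocyte marker sum of its group. Psmf1 had 5.58 in replicate 5 of the WT combination with anti-PD-1, below 5.93 to 6.04, in the tumor with the highest leukocyte marker sum of all 40 (2928 CPM). Psmb6 had 7.49 in replicate 3 of the isotype control, above 7.02 to 7.04, in the tumor with the lowest length score of its group. Psmb7 had 7.50 in replicate 2 of the FcD combination with anti-PD-1, above 7.20 to 7.29.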

How the results depend on the processing

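No paired analysis was possible because the labels number no replicates and the numbers used here follow sample order. Of 481 values under other settings, 434 kept their direction and call, 42 moved, 2 were weaker, 2 stronger and 1 was reversed, and of 700 with a mouse left out, 647 were the same, 43 moved and 10 were reversed. Causes were not tested. Abbreviated, isotype is the control, and WT, FcD and TGF-β the antibodies. Shares in brackets are of all genes, higher and lower. Numbers of members at an unadjusted p under 0.05 became, with no filter on low counts, 1 for FcD + anti-PD-1 against isotype (7.64% and 3.26%) and 2 against anti-PD-1 (4.85% and 3.19%), and with the library part 1 against isotype (10.7% and 5.48%, 17 genes adjusted). With only the compared groups they were 1 for WT + anti-PD-1 (9.76% and 4.65%) and 1 for FcD + anti-PD-1 against isotype (14.9% and 6.37%, 177 genes adjusted) and 0 for WT + anti-PD-1 against anti-PD-1 (3.54% and 3.36%), and TGF-β + anti-PD-1 gave 8 adjusted genes against isotype and 0 against anti-PD-1. DESeq2's test gave 1 adjusted gene for anti-PD-1, 10 for FcD + anti-PD-1 (1 member unadjusted, 6.35% and 3.14%), and for TGF-β + anti-PD-1 139 genes and 6 members against isotype and 78 genes and 5 members against anti-PD-1. Scaled to the constitutive subunits, members unadjusted were 1 for TGF-β (1.13% and 1.39%), 7 for WT + anti-PD-1 (12.6% and 6.71%) and 4 for FcD + anti-PD-1 (9.87% and 5.37%) against isotype, 2 for FcD + anti-PD-1 against anti-PD-1 (6.46% and 3.7%), and 9 for TGF-β + anti-PD-1 against either control (1.02% and 35.7%, 0.698% and 30.3%), with medians of 0.0019 and -0.0087, 2614 genes (17.7%) and 3 members (Psma5, Psmd1 and Psmd5) adjusted against isotype and 0 genes against anti-PD-1. With the length score, members unadjusted were 1 for TGF-β (2.7% and 1.38%), 5 for WT + anti-PD-1 (10.4% and 6.96%), 3 for FcD + anti-PD-1 (7.48% and 6.91%) and 9 for TGF-β + anti-PD-1 (9.08% and 8.16%, median 0.042) against isotype, and 2 for WT (7.8% and 4.44%) and 7 for TGF-β combinations (6.85% and 7.24%, median 0.049, 0 genes adjusted) against anti-PD-1. Psme2 with WT was then -0.023 (unadjusted p = 0.874), Psme1 with WT + anti-PD-1 against anti-PD-1 0.28 (0.0483), and Psme2 with FcD + anti-PD-1 0.30 (0.0404). Within libraries 61 to 80, PA28 minus constitutive subunits was 0.19 for anti-PD-1 against isotype, and -0.038 and -0.012 for the WT and FcD combinations against anti-PD-1.

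With 1 mouse left out, adjusted genes ran from 0 to 2006 and members from 0 to 23 for TGF-β + anti-PD-1 against isotype, from 0 to 1734 and 0 to 20 against anti-PD-1, and genes from 0 to 538 (without anti-PD-1 replicate 2) for WT + anti-PD-1 against anti-PD-1. Members unadjusted ran from 15 to 34 and 14 to 34 for TGF-β + anti-PD-1, 0 to 3 for WT, 0 to 1 for TGF-β, 0 to 6 for the WT and FcD combinations against isotype, and 0 to 8 (WT) and 0 to 5 (FcD) against anti-PD-1. Shares of all genes moved with them. For TGF-β + anti-PD-1, 4.92% to 13.1% of all genes were higher against isotype and 3.97% to 11.8% against anti-PD-1. In the WT and FcD combinations 3.04% to 10.8% and 2.53% to 15% were lower against isotype and 2.95% to 10.3% and 1.97% to 13.8% against anti-PD-1. Higher genes in these combinations were 2.81% to 17.4% and 5.3% to 14.9% against isotype and 2.15% to 15.2% and 2.77% to 11.9% against anti-PD-1. The lowest of these shares came without replicate 5 of the WT and replicate 4 of the FcD combination. With the antibodies alone, higher genes were 0.394% to 1.99% with WT and 0.511% to 3.16% with TGF-β. The highest counts of the WT combination came without its replicate 2 and those of the FcD combination without its replicate 2. Against isotype, Psme1 ran from -0.169 to 0.010 with anti-PD-1, -0.018 to 0.141 with TGF-β and -0.220 to 0.031 with FcD, and Psme2 from -0.142 to 0.038 with anti-PD-1, -0.273 to 0.00036 with FcD and -0.030 to 0.102 with WT + anti-PD-1 (-0.018 to 0.172 against anti-PD-1).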
